A study of Rattus norvegicus with 120 samples.

Results

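The miR-221/miR-222 cluster was followed in rat hippocampus through the 3 stages that come after an episode of status epilepticus (SE). Its members are the 4 mature miRNAs rno-miR-221-3p, rno-miR-221-5p, rno-miR-222-3p and rno-miR-222-5p, taken by name from the deposited read tables. They were chosen by their measured pattern, that is, by their reads in SE rats and controls of each onset age, by the ratio of their 2 arms, and by their reads in infancy and adult controls. These comparisons are therefore given as descriptions, with no test of a member. All 4 members were listed in each stage, among 623 miRNAs in the acute, 629 in the latent and 653 in the chronic stage (666 in any stage). Members with more than 500 reads summed over the libraries of a stage numbered 3 in each, among 383, 406 and 442 miRNAs, and miR-222-5p stayed below that minimum throughout.

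Both hairpins lie on the X chromosome and are processed from a shared primary transcript. From each hairpin Dicer releases a duplex, of which 1 arm is usually kept in the Argonaute complex as the guide while the other arm is mostly degraded. In the miR-221/miR-222 hairpins the 3p arm is the usual guide. Targets are chosen mainly through the seed, bases 2 to 8 of the mature miRNA, so guides with the same seed can act on the same mRNAs. The cluster is known from endothelium and vessel smooth muscle, from proliferating cells and from gliomas, where it represses the cell cycle inhibitor Cdkn1b and the receptor Kit.

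The mature sequences are shown because the pair of guides shares a seed and the arms differ in level. They come from RefSeq (GRCr8, plus strand), where all 4 names were matched, and the seed is in capitals.
rno-miR-221-3p: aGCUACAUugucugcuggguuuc
rno-miR-222-3p: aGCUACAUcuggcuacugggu
rno-miR-221-5p: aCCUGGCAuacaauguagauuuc
rno-miR-222-5p: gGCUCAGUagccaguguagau
The guides miR-221-3p (chrX:6023246-6023268) and miR-222-3p (chrX:6022682-6022702) begin with the same 8 bases, and the seed GCUACAU belongs to no other of the 693 mature rat miRNAs in the table. Counted without gaps over the 21 bases of the shorter one, 11 positions are identical, and the study's assignment of reads allowed 1 mismatch. The passenger arms miR-221-5p (chrX:6023206-6023228) and miR-222-5p (chrX:6022642-6022662) each have a seed found in no other miRNA of the table.

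The hairpins show how the arms sit within each precursor, with both arms in capitals.
Mir221: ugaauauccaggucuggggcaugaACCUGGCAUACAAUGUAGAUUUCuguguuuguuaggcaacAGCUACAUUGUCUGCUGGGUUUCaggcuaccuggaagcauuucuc
Mir222: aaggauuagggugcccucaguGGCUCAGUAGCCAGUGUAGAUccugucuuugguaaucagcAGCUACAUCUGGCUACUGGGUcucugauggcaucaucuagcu
Mir222 (chrX:6022621-6022723) precedes Mir221 (chrX:6023182-6023290) on the plus strand, with 458 bases between them.

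Per the study, which describes its chronic rats, the samples were the entire hippocampus, both hemispheres together, of male Wistar rats. That description and the treatment below are taken to hold for the acute and latent rats too. There was 1 library per rat. Every rat, control or not, was given LiCl. SE rats then received the muscarinic agonist pilocarpine, on postnatal day 12 in the infancy-onset arm and on day 60 in the adult-onset arm, followed by paraldehyde once convulsive SE had begun, and controls received saline. Hippocampi were taken at 24 hours (acute), 1 week (latent) or 3 months (chronic), which gives 12 groups. Counts were used for 8 infancy-onset SE rats, 9 infancy controls, 9 adult-onset SE rats and 9 adult controls in the acute stage. The latent stage had 10 rats in each group, and the chronic stage had 10, 9, 10 and 10 in the same order of groups. Libraries held 309975 to 28111631 miRNA reads (median 2296301), and levels are CPM (counts relative to library size, with TMM scaling within a stage). Infancy-onset and adult-onset rats also differ in age when taken and in the range of their library numbers, and these cannot be told apart from onset age. In every stage SE rats and controls of the infancy-onset arm also had separate ranges of library numbers. So did those of the acute adult-onset arm, apart from control library 1-S8. In these comparisons whatever goes with library number cannot be told apart from SE. Per the study, the chronic adult-onset SE rats that were kept had clonic motor seizures on video, and infancy-onset SE rats had no motor seizures. Adult-onset rats with a tumour, without motor seizures or with repeated tonic-clonic seizures had been left out. The tissue is bulk hippocampus, so fewer cells of a type and less RNA per cell cannot be told apart either. The neuronal miRNAs fixed as markers (miR-124-3p, miR-128-3p, miR-138-5p, miR-218a-5p and miR-137-3p) were read in every group, at a summed 50986 to 131557 CPM per library, while the liver miRNA miR-122-5p did not pass the minimum of 500 reads in any stage.

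Of the chronic libraries, 7 stood apart from the other 32. They are 3-S22, 3-S23 and 3-S24 (infancy-onset SE), 3-S31, 3-S32 and 3-S40 (infancy controls) and 3-S7 (adult control), and they were picked out, after the data had been seen, by miR-99b-5p below 1500 CPM by library size. In them miR-99b-5p had 602 to 989 CPM by library size, against 2085 to 4652 in the others, and let-7b-5p had 24420 to 43240 CPM, against 2549 to 28110 in the others. For the members that passed the minimum, chronic comparisons of SE rats with controls and between controls are given with and without these libraries. The chronic difference between onset ages is given with all libraries only.

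miR-221-3p was the most abundant member, placed 35th, 32nd and 25th by mean CPM among the miRNAs listed in the acute, latent and chronic stages. miR-222-3p was placed 55th, 57th and 55th, and miR-221-5p 207th, 140th and 128th. The 3 acute members that passed the minimum had the same order of group means in that stage, with infancy-onset SE rats lowest, then infancy controls, then adult-onset SE rats, and adult controls highest. Between neighbours in that order the ranges of mean ± SD overlapped for each of these members, except that miR-221-5p of adult-onset SE rats (224 ± 60.7 CPM, n = 9) lay clear of infancy controls (91.4 ± 14.7 CPM, n = 9). In the latent stage both guides of adult-onset SE rats lay clear of the infancy group next in order, and no other neighbours did. In the chronic stage no neighbours lay clear of each other for any of these 3 members, with or without the 7 libraries, although the order of the means changed for each of them when they were left out.

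**Figure D1:**
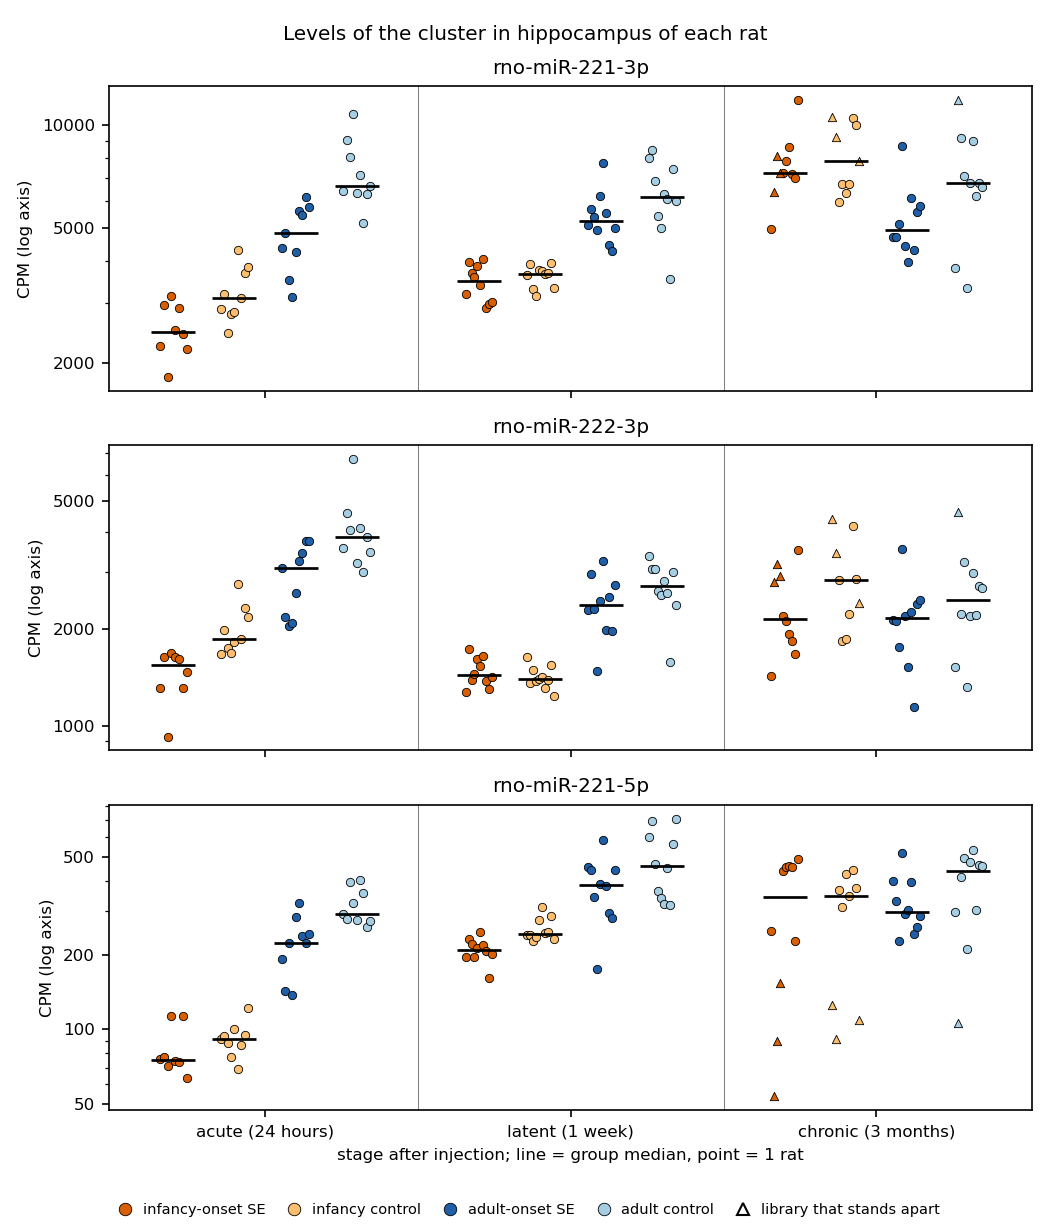
CPM of rno-miR-221-3p, rno-miR-222-3p and rno-miR-221-5p (log axes) in each rat, by stage and group; lines are group medians and triangles are the 7 chronic libraries that stand apart. In the acute stage infancy controls sit below adult controls without overlap for all 3 members, and in the chronic stage miR-221-5p of the 7 libraries lies at 53.8 to 155 CPM, below the 211 to 534 CPM of the other 32.

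At 24 hours after adult-onset SE all 3 members that passed the minimum had lower means in SE rats than in controls. miR-221-3p had a lowest, median and highest level of 3129, 4817 and 6151 CPM in adult-onset SE rats (n = 9), against 5162, 6620.4 and 10794 CPM in adult controls (n = 9). Each SE rat lay below the control median and 5 lay below every control, with an overlap of the groups at the lowest control. The log2 fold change was -0.60 (standard error 0.15), or 0.66-fold, the 6th lowest of 383. miR-222-3p had 2049, 3081 and 3758 CPM in adult-onset SE rats, against 3002, 3853 and 6716 CPM in adult controls. Here too each of the 9 SE rats was below the control median, with a log2 fold change of -0.46 (standard error 0.16). miR-221-5p, the passenger arm, had 137, 224 and 325 CPM in adult-onset SE rats, against 260.1, 294 and 402 CPM in adult controls. For this arm 7 of the 9 SE rats lay below every control, and the log2 fold change was -0.50 (standard error 0.16). One member, miR-221-3p, had an adjusted p under 0.05 in edgeR's quasi-likelihood test, where 3.66% of all miRNAs tested did, and nothing is read from that count because this contrast helped to choose the members. The call of miR-221-3p was lost without SE library 1-S2 or 1-S3 or control library 1-S13 or 1-S14, 1 at a time, at log2 fold changes between -0.66 and -0.53 over all such fits. The SE libraries were shallower, with a median of 562003 reads against 1838745 in controls. With every library thinned to 309975 reads the log2 fold changes were -0.61 for miR-221-3p, -0.45 for miR-222-3p and -0.55 for miR-221-5p.

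After infancy-onset SE both guides had lower means in acute SE rats than in controls. miR-222-3p had 928, 1543 and 1685 CPM in infancy-onset SE rats (lowest, median and highest, n = 8), against 1674, 1867 and 2752 CPM in infancy controls (n = 9). The groups overlapped by a single SE rat, 7 of 8 SE rats lying below every control, and the log2 fold change was -0.49 (standard error 0.13), or 0.71-fold. miR-221-3p had 1822, 2471 and 3143 CPM in infancy-onset SE rats, against 2459, 3102 and 4310.5 CPM in infancy controls. Of the 8 SE rats 7 were below the control median and 4 below every control, with a log2 fold change of -0.38 (standard error 0.13). miR-221-5p had 63.7, 75.0 and 113 CPM in infancy-onset SE rats, against 69.2, 91.5 and 122 CPM in infancy controls, from 31 to 171 reads per library. Its groups overlapped almost wholly, with a log2 fold change of -0.17 (standard error 0.15). Here 1 member (miR-222-3p) was called, beside 4.96% of all miRNAs, and the call was lost without 1-S22, 1-S24, 1-S29, 1-S37, 1-S39 or 1-S40, 1 at a time.

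**Figure D2:**
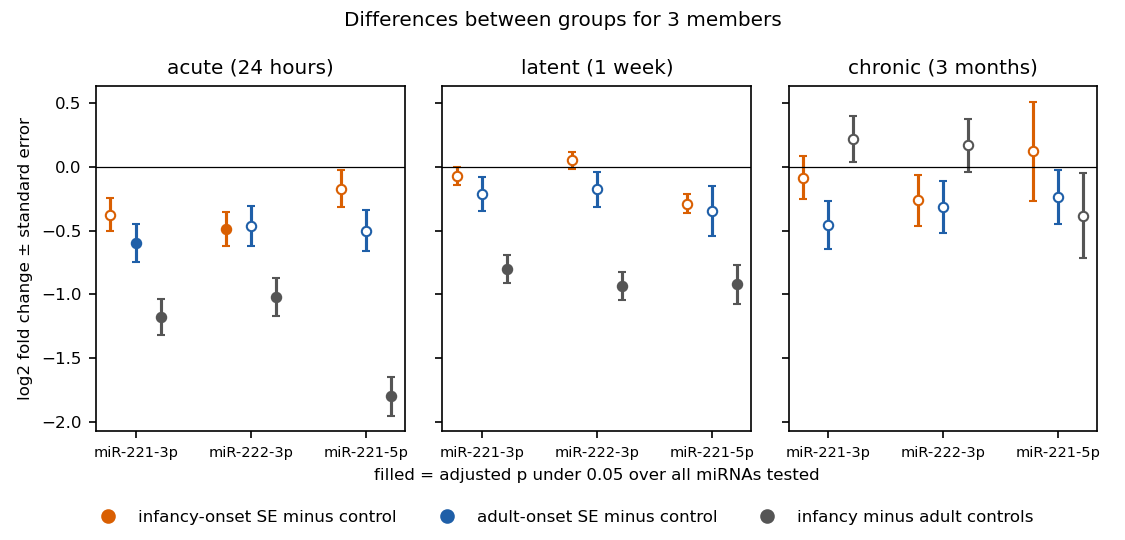
log2 fold change ± standard error (edgeR) of 3 members in each stage, for infancy-onset SE minus control, adult-onset SE minus control and infancy minus adult controls; filled points have an adjusted p under 0.05 over all miRNAs tested. The SE differences lie between -0.60 and 0.12, and the acute difference of the controls in miR-221-5p reaches -1.80.

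Several miRNAs of injury or of neuronal activity were higher in SE rats in the same acute libraries. The list of injury and inflammation miRNAs, which includes the activity-induced miR-212-3p, holds 11 names, of which 9 were measured. After adult-onset SE, where 3.66% of all miRNAs tested were called, 5 of the 9 were called higher and none lower. Their median log2 fold change was 0.68, against -0.00 over all miRNAs tested. Among them were miR-155-5p, an NF-kB responsive miRNA of immune cells (2.99, standard error 0.59), miR-212-3p, which is induced by neuronal activity through CREB (1.46, standard error 0.26), and miR-21-5p of reactive glia (1.16, standard error 0.30). After infancy-onset SE, where 4.96% of all miRNAs were called, 4 of 9 were called higher and none lower (median 0.26, against 0.00 over all). These were led by miR-21-5p (1.63, standard error 0.21), miR-212-3p (1.57, standard error 0.19) and miR-155-5p (1.45, standard error 0.17). Of the vessel wall miRNAs (miR-126a, miR-143 and miR-145, both arms), which mark tissue in which miR-221/miR-222 is known to act, 5 of 6 were measured and 0 were called after SE of either onset age by edgeR, DESeq2 or limma voom. At an unadjusted p under 0.05 in edgeR they numbered 2 after adult-onset SE, beside 80 of all 383 miRNAs. After infancy-onset SE they numbered 0, beside 61 of all 383. Their median log2 fold changes were 0.31 after adult-onset SE and 0.08 after infancy-onset SE. The 3 myeloid markers (miR-142-3p, miR-142-5p and miR-223-3p) had higher fitted levels in SE rats in both onset arms, and none was at 0 over a whole group. Their summed level was 249 to 1246 CPM in adult-onset SE rats against 127 to 279.9 CPM in adult controls, and 206 to 351 CPM in infancy-onset SE rats against 90.5 to 233 CPM in infancy controls. Their part in the values of the cluster was not tested.

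One week after SE the guides of SE rats and controls overlapped widely. After adult-onset SE miR-221-3p had 4261.5, 5243 and 7739 CPM (n = 10), against 3541, 6171 and 8455 CPM in adult controls (n = 10). miR-222-3p had 1481, 2375 and 3255 CPM in adult-onset SE rats, against 1582, 2724 and 3365 CPM in adult controls. The log2 fold changes were -0.22 (standard error 0.13) and -0.18 (standard error 0.14), with 8 and 7 of 10 SE rats below the control median. miR-221-5p had 176, 384 and 584 CPM in adult-onset SE rats, against 319, 457 and 712 CPM in adult controls, a log2 fold change of -0.35 (standard error 0.20). Of these SE rats 9 of 10 were below the control median and 3 below every control. None of the 3 members was called, beside 7.39% of all miRNAs. In the same comparison 7 of 11 measured miRNAs of the proliferation list, mostly from the miR-17~92 and miR-106b~25 clusters, were called higher, led by miR-18a-5p (1.22, standard error 0.22), and 4 of 9 injury miRNAs were called higher, led by miR-155-5p (2.54, standard error 0.33). The summed myeloid markers were at 165 to 599 CPM in adult-onset SE rats and 84.9 to 196 CPM in adult controls, and their part was not tested.

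After infancy-onset SE the member with the largest latent difference was the passenger arm. miR-221-5p had 161, 210.2 and 247 CPM in infancy-onset SE rats (n = 10), against 229, 244 and 312 CPM in infancy controls (n = 10). Of the SE rats 8 lay below every control and 9 below the control median, a log2 fold change of -0.29 (standard error 0.07), or 0.82-fold. The guide of the same hairpin, miR-221-3p, had 2899.6, 3490.1 and 4062 CPM in infancy-onset SE rats, against 3157, 3668 and 3943 CPM in infancy controls (log2 fold change -0.07, standard error 0.07). miR-222-3p had 1278, 1435 and 1738 CPM in infancy-onset SE rats, against 1235.5, 1395.5 and 1643 CPM in infancy controls (0.05, standard error 0.07). For both guides the groups covered much the same range. No member was called, beside 0.493% of all miRNAs. miR-221-5p was called by DESeq2, which called 10 of 406 miRNAs, and by limma voom with sample weights, which called 5. It was also called by edgeR without 2-S23, 2-S31 or 2-S33, 1 at a time. Nothing is read from these calls, because this contrast helped to choose the members.

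At 3 months after adult-onset SE most SE rats lay below the control median for each member, within wide control ranges. miR-221-3p had 3973, 4909 and 8662 CPM in adult-onset SE rats (n = 10), against 3323, 6748 and 11858 CPM in adult controls (n = 10). Of the SE rats 9 of 10 were below the control median and none below every control, and the log2 fold change was -0.46 (standard error 0.19). miR-222-3p had 1148, 2167 and 3538 CPM in adult-onset SE rats, against 1323, 2454 and 4608 CPM in adult controls (-0.32, standard error 0.20). miR-221-5p had 228, 298 and 519 CPM in adult-onset SE rats, against 106, 436 and 534 CPM in adult controls (-0.24, standard error 0.21). The highest control in both guides and the lowest in miR-221-5p was the same library, 3-S7, which is among the 7 that stand apart. Without it the log2 fold changes were -0.32 for miR-221-3p, -0.15 for miR-222-3p and -0.34 for miR-221-5p. The members called numbered 0 of 3, beside 1.36% of all miRNAs, and without 3-S7 they numbered 0 of 3 beside 4.3%. In the same comparison, with all libraries, 2 of 10 measured injury miRNAs were called higher, miR-155-5p (1.52, standard error 0.34) and miR-146a-5p (1.08, standard error 0.20). The 3 myeloid markers had positive log2 fold changes (median 0.61) and the 5 neuron markers negative ones (median -0.28, against -0.09 over all miRNAs). The summed myeloid markers were at 104 to 351 CPM in adult-onset SE rats against 74.7 to 175 CPM in adult controls, and the neuron markers at 59122 to 97438 CPM against 63385 to 110789 CPM. Their part in the values of the cluster was not tested.

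At 3 months after infancy-onset SE the groups overlapped in each member. miR-221-3p had 4951, 7221 and 11829 CPM in infancy-onset SE rats (n = 10), against 5949, 7842 and 10544 CPM in infancy controls (n = 9), a log2 fold change of -0.08 (standard error 0.17). miR-222-3p had 1428, 2155 and 3526 CPM in infancy-onset SE rats, against 1832, 2840.05 and 4393 CPM in infancy controls, a log2 fold change of -0.26 (standard error 0.20). miR-221-5p had 53.8, 344 and 489.9 CPM in infancy-onset SE rats, against 91.2, 346 and 440.5 CPM in infancy controls, with a log2 fold change of 0.12 and a standard error of 0.39. The wide error of this arm goes with the 6 libraries of these groups that stand apart, 3 in each. Without them miR-221-5p averaged 396 ± 108 CPM in infancy-onset SE rats (SD, n = 7) and 377 ± 48.0 CPM in infancy controls (SD, n = 6). The log2 fold changes were then 0.02 for miR-221-3p, -0.32 for miR-222-3p and 0.07 for miR-221-5p. No miRNA at all was called in this comparison (0% of 442) by edgeR, DESeq2 or limma voom. In edgeR 23 of the 442 had an unadjusted p under 0.05, where chance alone gives about 1 in 20.

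The SE differences of the members at the 2 onset ages lay within 2 standard errors of each other. The adult-onset difference minus the infancy-onset difference, on the log2 scale, was -0.26 (standard error 0.20) for miR-221-3p, -0.02 (0.21) for miR-222-3p and -0.36 (0.21) for miR-221-5p in the acute stage. In the latent stage it was -0.16 (standard error 0.15), -0.24 (0.15) and -0.07 (0.21) in the same order of members. In the chronic stage, with all libraries, it was -0.30 (standard error 0.25), 0.04 (0.29) and -0.30 (0.46). These are descriptions and do not show that the onset ages were alike.

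The differences between infancy and adult controls were larger than any after SE in the acute and latent stages. These controls also served the SE comparisons above. At 24 hours after saline, miR-221-3p averaged 3234 ± 592 CPM in infancy controls and 7310.2 ± 1718 CPM in adult controls (SD, n = 9 each), a log2 difference of -1.18 (standard error 0.14). miR-222-3p averaged 2003 ± 358 CPM in infancy controls and 4062 ± 1108 CPM in adult controls, a difference of -1.02 (standard error 0.15). miR-221-5p averaged 91.4 ± 14.7 CPM in infancy controls and 318 ± 54.0 CPM in adult controls, a difference of -1.80 (standard error 0.15), or 0.29-fold. For all 3 members every infancy control lay below every adult control. Such groups without overlap were found for 25.8% of all miRNAs, and 67.1% of all miRNAs were called, as were these 3, so nothing particular to the cluster is read from the counts.

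At 1 week miR-221-3p averaged 3613 ± 261 CPM in infancy controls and 6302 ± 1465 CPM in adult controls (SD, n = 10 each), a log2 difference of -0.80 (standard error 0.11). miR-222-3p averaged 1417 ± 118 CPM in infancy controls and 2705 ± 496 CPM in adult controls (-0.93, standard error 0.11). miR-221-5p averaged 255 ± 27.7 CPM in infancy controls and 482 ± 151 CPM in adult controls (-0.92, standard error 0.15). Only miR-221-5p kept the groups apart without overlap, as 20.4% of all miRNAs did, and in both guides the overlap came from 1 adult control, 2-S14. All 3 members were called, beside 57.6% of all miRNAs.

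At 3 months, when rats of both onset ages had grown up, the difference was smaller and its sign varied. miR-221-3p averaged 8201 ± 1878 CPM in infancy controls (SD, n = 9) and 7054 ± 2511 CPM in adult controls (SD, n = 10), a log2 difference of 0.22 (standard error 0.18). miR-222-3p averaged 2890.4 ± 937 CPM in infancy controls and 2570.4 ± 932 CPM in adult controls (0.17, standard error 0.21). miR-221-5p averaged 288 ± 139.8 CPM in infancy controls and 375 ± 139.9 CPM in adult controls (-0.38, standard error 0.33). The groups overlapped in each, and 0.226% of all miRNAs had none. In a fit of all 4 groups without the 7 libraries that stand apart, 4 of them controls, these differences were 0.25, 0.17 and -0.10. No member was called, beside 6.56% of all miRNAs.

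The other lists differed in direction between the same control groups, where 67.1% of all acute and 57.6% of all latent miRNAs were called. Of the proliferation miRNAs 10 of 11 measured ones were called higher in infancy than in adult controls in the acute stage (median log2 difference 0.99, against 0.04 over all miRNAs), led by miR-18a-5p (2.08, standard error 0.20) and miR-17-5p (1.83, standard error 0.14). This list holds growth-associated miRNAs, a role also known for miR-221/miR-222, whose members were lower. Of 9 injury miRNAs 6 were called lower, among them miR-212-3p (-1.64, standard error 0.25) and miR-34a-5p, which p53 induces (-1.57, standard error 0.23). The other 2 called were higher, among them miR-155-5p (1.83, standard error 0.47), the largest change of this list. The oligodendrocyte markers miR-338-3p (-3.68, standard error 0.20), miR-219a-5p and miR-219a-2-3p were all called lower, at a summed 473 to 1855 CPM in infancy controls against 4485 to 8047 CPM in adult controls. Of the neuron markers 4 of 5 were called lower, at a summed 53994 to 70778 CPM in infancy controls against 75111 to 92740 CPM in adult controls. The part of these cell types in the values of the cluster was not tested. Of the vessel wall miRNAs 0 of 5 were called in the acute stage by edgeR or DESeq2, and 1 by limma voom. At an unadjusted p under 0.05 in edgeR they numbered 0, beside 265 of all 383 miRNAs. In the latent stage miR-126a-3p of endothelium was called higher (0.23, standard error 0.09) and miR-145-3p of smooth muscle lower (-0.37, standard error 0.13) in infancy than in adult controls, 2 of 6 by edgeR and DESeq2 and 4 of 6 by limma voom. Between all chronic controls miR-126a-3p was called lower instead (-0.54, standard error 0.16). There 1 of 6 was called by edgeR, beside 6.56% of all miRNAs, 2 by DESeq2 and 3 by limma voom.

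The arm ratio does not depend on how libraries are scaled, since both arms are read in the same library. In the acute stage the median library held 27.6 reads of miR-221-3p for each read of miR-221-5p (range 14.5 to 61.7, n = 35), and in the latent stage 14.7 (range 8.42 to 27.96, n = 40). In the chronic stage it held 16.8 (range 11.8 to 30.5) over 32 libraries and 90.0 (range 46.2 to 118) over the 7 that stand apart. The stages were counted in separate tables, so an order of the stages is not drawn. Within stages, acute infancy controls had a log2 ratio of 5.13 ± 0.35 (SD, n = 9) and acute adult controls 4.51 ± 0.38 (SD, n = 9), a difference of 0.62 (standard error 0.17), with every infancy control above the adult median although the groups overlapped. The log2 ratio of miR-222-3p to miR-222-5p was lower in infancy controls, by -1.34 (standard error 0.43), with each of the 9 below the adult median. It rests on 1 to 6 reads of miR-222-5p per library in infancy controls and 1 to 20 in adult controls. At such counts it depends on the 0.5 read added and on depth, so no difference in arm use is read from it. Latent infancy-onset SE rats had a log2 ratio of 4.04 ± 0.16 (SD, n = 10) and their controls 3.83 ± 0.12 (SD, n = 10), a difference of 0.22 (standard error 0.06) that goes with the lower miR-221-5p described above. In the other acute and latent SE comparisons the difference of the log2 ratio was between -0.20 and 0.15, each with a standard error of 0.15 or more. The chronic difference after adult-onset SE was -0.23 (standard error 0.31) with 3-S7 among the controls and 0.05 (standard error 0.13) without it. After infancy-onset SE it was -0.10 (standard error 0.49) with all libraries and -0.01 (standard error 0.18) without those that stand apart. Chronic infancy controls exceeded adult controls by 0.74 (standard error 0.46) with all libraries and by 0.33 (standard error 0.16) without them.

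**Figure D3:**
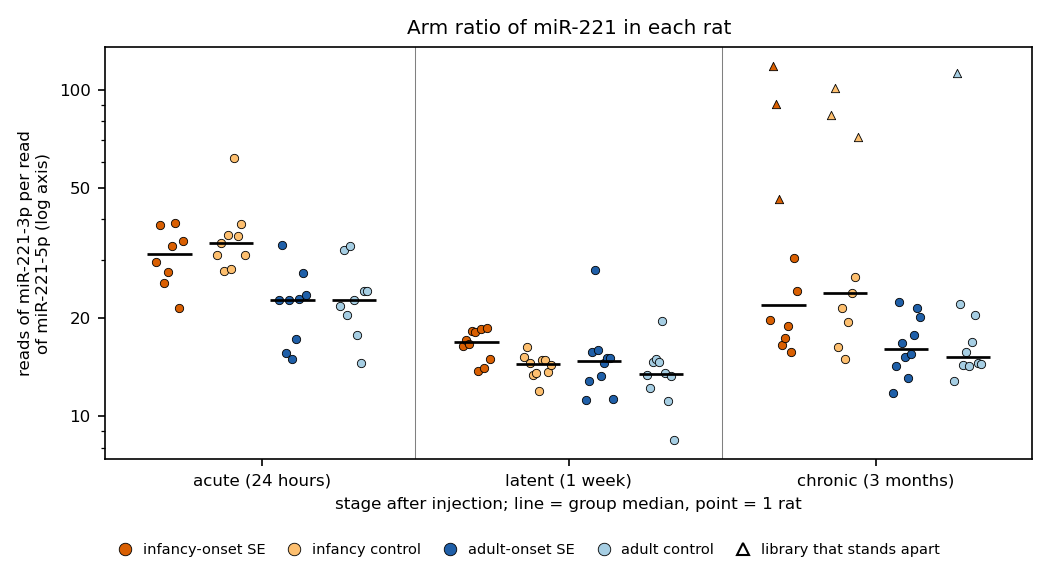
Reads of miR-221-3p per read of miR-221-5p (log axis) in each rat by stage and group, with lines at group medians and triangles for the chronic libraries that stand apart. The 7 triangles lie between 46.2 and 118, above the 11.8 to 30.5 of the other chronic libraries.

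The 7 chronic libraries had lower levels of the passenger arm than the others. miR-221-5p had 50.4 to 122 CPM by library size in them, against 255 to 564 in the other 32, without overlap. miR-221-3p had 4859 to 12710 CPM by library size in the 7 libraries, against 3826 to 11310 in the others, and miR-222-3p had 1726 to 4939 against 1338 to 3897. Both guides thus covered overlapping ranges, with medians of 6140 against 6629 for miR-221-3p and 2630 against 2206 for miR-222-3p. With TMM scaling the means of both guides were higher in the 7 libraries. miR-221-3p then averaged 8737 ± 1931 CPM (SD) against 6652 ± 2028, and miR-222-3p 3391 ± 824 against 2285 ± 686. The shift between the arms was not limited to this hairpin. Over the 142 hairpins with both arms measured, the log2 ratio of 3p to 5p arm in the 7 libraries relative to the other 32 had a median of -0.01 and ran from -3.38 to 3.90. It was above 1 in 22 hairpins and below -1 in 18, and miR-221 was the 5th highest at 2.28. What set these libraries apart was not tested. The infancy controls 3-S38 and 3-S39 also had high let-7b-5p, at 28110 and 25880 CPM by library size, but had 413 and 361 CPM of miR-221-5p and were kept with the others.

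**Figure D4:**
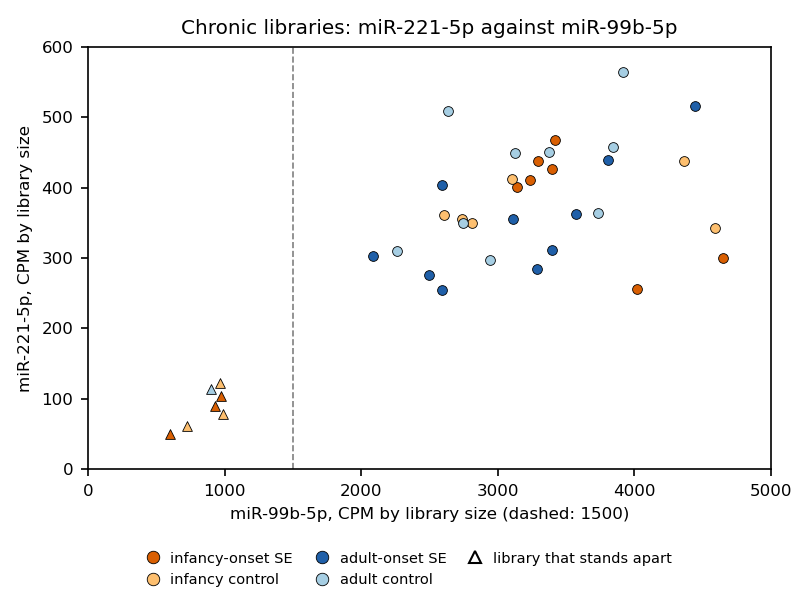
CPM by library size of miR-221-5p against miR-99b-5p in the 39 chronic libraries, coloured by group, with a dashed line at 1500 CPM of miR-99b-5p. The 7 libraries left of the line (triangles) have 50.4 to 122 CPM of miR-221-5p, and the 32 right of it 255 to 564.

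Per read of miR-221-3p, the other guide miR-222-3p had a median of 0.584 reads in acute libraries (range 0.451 to 0.710), 0.424 in latent libraries (range 0.301 to 0.561) and 0.350 in the 32 chronic libraries (range 0.224 to 0.498). A ratio of reads of different miRNAs is not a ratio of molecules, since ligation during library preparation favours some ends over others. With all libraries, the SE differences of this log2 ratio within a stage lay between -0.18 and 0.13, with overlapping groups in each. In the acute stage the difference was 0.13 (standard error 0.07) after adult-onset SE, with 8 of 9 SE rats above the control median. It was -0.12 (standard error 0.06) after acute infancy-onset SE, with 6 of 8 SE rats below. The latent infancy-onset difference was 0.12 (standard error 0.06), with 9 of 10 SE rats above. The value of -0.18 came from chronic infancy-onset SE rats (-1.72 ± 0.33, n = 10, against -1.54 ± 0.28, n = 9, in infancy controls), with a standard error of 0.14. Without the 6 libraries of these groups that stand apart the ratio was -1.90 ± 0.16 in infancy-onset SE rats (SD, n = 7) and -1.57 ± 0.31 in infancy controls (SD, n = 6), a difference of -0.33 (standard error 0.14). All 7 of these SE rats lay below the control median, and the groups overlapped. The chronic adult-onset difference was 0.12 with all libraries and 0.13 without 3-S7.

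miR-222-5p was close to the limit of these libraries. It had 155 reads in all acute, 239 in all latent and 490 in all chronic libraries, with at most 20, 21 and 56 in 1 library. Group means lay between 1.33 and 5.01 CPM, and in each stage neighbours in the order of groups overlapped. In the acute stage infancy-onset SE rats averaged 5.01 ± 2.50 CPM (SD, n = 8), infancy controls 4.32 ± 2.68 (SD, n = 9), adult-onset SE rats 2.37 ± 3.12 (SD, n = 9) and adult controls 3.55 ± 2.53 (SD, n = 9). It was at 0 in 4 acute libraries, all of adult-onset SE rats, where a count of 0 allows up to 3 reads, that is 4.56 to 6.91 CPM by library size, in the same range as the highest group means. It was also at 0 in 3 chronic libraries, 1 of an adult-onset SE rat and 2 of adult controls. Such limits cover counting error only. The median library had 683 reads of miR-222-3p for each read of miR-222-5p in the acute stage and 858 in the latent stage, with 0.5 read added to each arm.

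Covariation of the members between rats of a group had no part in choosing them and was tested. log2 CPM was centred on its group mean, and 6 relations were computed, each with Pearson's r and Spearman's rho and a two-sided permutation test (100000 permutations within groups), adjusted by Benjamini and Hochberg over both statistics of the 6 relations. The guides, which come from neighbouring hairpins, varied together in each stage. In the acute stage r of miR-221-3p with miR-222-3p was 0.90 and rho 0.87 (n = 35, permutation p = 1e-05 each, the smallest the permutations can give, adjusted p = 3e-05 each), and r was 0.86 to 0.94 within the 4 groups. In the latent stage r was 0.73 (permutation p = 4e-05, adjusted 8e-05) and rho 0.64 (permutation p = 5e-05, adjusted 8.6e-05, n = 40), with 0.26 to 0.93 within groups. Without the 2 libraries farthest from the median of miR-221-3p the latent r was 0.51. In the chronic stage r was 0.80 and rho 0.74 (n = 39, permutation p = 1e-05 each, adjusted p = 3e-05 each), and r was 0.81 without the libraries that stand apart. All libraries of a stage share their sequencing and counting, and depth differed among them.

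The arms of the miR-221 hairpin covaried in the latent stage. There r of miR-221-3p with miR-221-5p was 0.65 (permutation p = 1.5e-04, adjusted 2.2e-04) and rho 0.67 (permutation p = 4e-05, adjusted 8e-05, n = 40), with 0.55 to 0.72 within groups. For the acute stage r was 0.31 (permutation p = 0.097, adjusted 0.116) and rho 0.30 (permutation p = 0.0913, adjusted 0.116, n = 35), which did not pass, with 31 to 901 reads of miR-221-5p behind each acute value. Over all 39 chronic libraries r was 0.08 (permutation p = 0.628, adjusted 0.628) and rho 0.17 (permutation p = 0.301, adjusted 0.329), which did not pass either. Without the 2 farthest libraries r was 0.19 in the acute, 0.56 in the latent and 0.18 in the chronic stage. The chronic libraries fall into separate clusters in miR-221-5p, and over the 32 without those that stand apart r was 0.70, with 0.43 to 0.85 within groups. That value is a description with no test, because the 7 libraries were left out after the data had been seen, by a miRNA (miR-99b-5p) whose level varied with that of miR-221-5p. Whether the arms covaried less than the guides did was not tested.

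**Figure D5:**
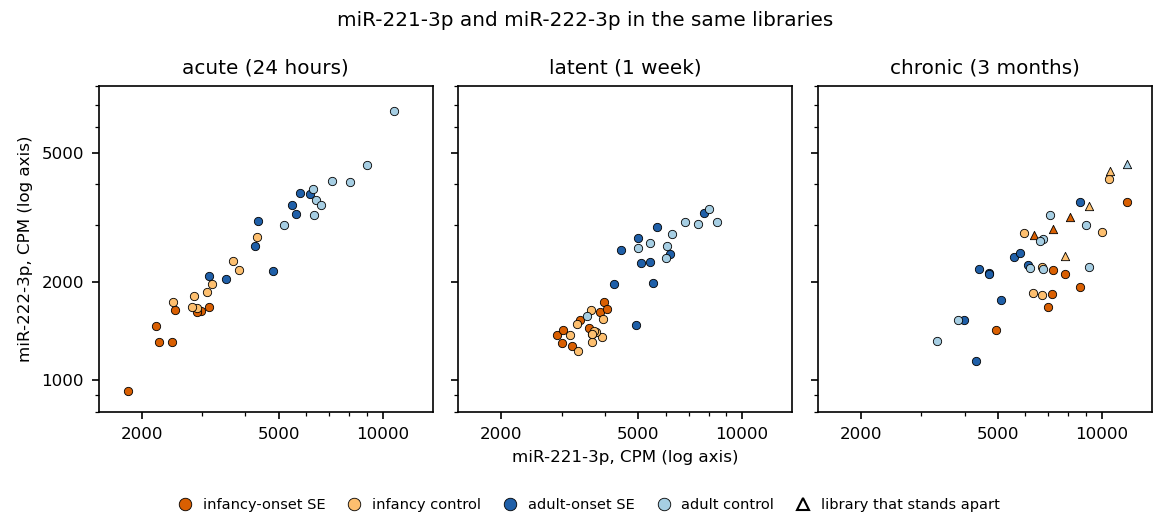
CPM of miR-222-3p against miR-221-3p (log axes) in each library, by stage, coloured by group, with triangles for the chronic libraries that stand apart. The points follow a line in each stage, with r = 0.90 (acute), 0.73 (latent) and 0.80 (chronic) after centring by group.

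As a description, miR-222-3p had the highest within-group r to miR-221-3p of all 382, 405 and 441 other miRNAs of the acute, latent and chronic stages. Seen from miR-222-3p, miR-221-3p was 1st in the acute, 4th in the latent and 2nd in the chronic stage, and miR-504 was 1st in the latent (r = 0.84) and chronic (r = 0.82) stages. For miR-221-5p the nearest were miR-99a-5p in the acute (r = 0.68), miR-146b-5p in the latent (r = 0.81) and miR-99b-5p in the chronic stage (r = 0.91), the last over all 39 libraries, the 7 that stand apart included. miR-99b-5p also served to pick out those 7. Without them the chronic ranks of the guides to each other were the same (1st and 2nd), and the nearest to miR-221-5p was miR-148b-3p (r = 0.83). These partners were named by their rank, after their values were seen.

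Over the 12 group means, centred within each stage, the miRNAs most like the guides were ranked among 252 miRNAs with at least 50 CPM in each stage. For miR-221-3p they were miR-29b-5p (r = 0.98), miR-222-3p (0.97), miR-328a-3p (0.95), miR-125a-5p (0.95) and miR-344a-3p (0.95). For miR-222-3p they were miR-125a-5p (r = 0.98), miR-221-3p (0.97), miR-26a-5p (0.97), miR-29b-5p (0.96) and miR-30c-5p (0.95). miR-221-5p was 32nd for miR-221-3p (0.85) and 18th for miR-222-3p (0.89). Without the 7 chronic libraries miR-222-3p was 6th for miR-221-3p (0.95), miR-221-3p was 7th for miR-222-3p (0.95), and miR-221-5p was 4th (0.95) and 8th (0.94). All of these group means share their libraries, and miR-29b-5p and miR-125a-5p, which were near both guides, also had lower levels in infancy than in adult controls. Their log2 differences were -1.23 in the acute and -0.68 in the latent stage for miR-29b-5p, and -0.86 and -0.74 for miR-125a-5p.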

How the data were processed

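Total RNA of frozen hippocampus was made into libraries with the NEXTflex Small RNA-Seq Kit. Per the study's methods, the authors removed adapters with Kraken and Cutadapt, kept reads of 16 to 28 bases, and used seqBuster with at most 1 mismatch to name miRBase miRNAs. The deposited counts are raw reads per mature miRNA, and the deposited signal is the authors' normalized reads, equal to the raw counts divided by 1 factor per library. The submitters' notes name DESeq2 1.16.1. Of 120 labelled libraries 114 had counts, each from its own rat, and the other 6 were not analysed here. No library pair of a stage held identical counts.

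Counts of miRNAs with more than 500 reads in a stage were scaled by TMM and fitted with edgeR 4.0.16 (quasi-likelihood F test, R 4.3.3). The Benjamini-Hochberg adjustment ran over every miRNA tested in a comparison. SE rats and controls of 1 onset age were fitted together, as in the study, and controls were compared in a fit of all 4 groups of a stage. A miRNA is called at an adjusted p below 0.05. The standard error is the size of the log2 fold change divided by the square root of F. Log2 CPM used a prior count of 2, and ratios had 0.5 read added to each arm. The tested correlations used numpy 2.4.6, with ranks for rho from scipy 1.17.1. Alternatives were DESeq2 1.42.0, library sizes only, limma-trend and voom (limma 3.58.1), no filter on low counts, equal depth, other fits and leaving out each library. Scripts were tested on simulated data. With 1 library per rat, p-values of the fits rest on the spread between rats and between library preparations together. Permutation p-values rest on covariation between libraries within groups.

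The members, lists and tests were chosen with earlier results of these data known, and lists were written from general knowledge. Named miRNAs are the members, the 5 most like each guide, and the up to 3 of each list with the largest change in a comparison. The nearest partners by rank, and the miRNAs that mark the chronic libraries that stand apart, were named after their values were seen.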

Additional observations from a re-analysis of the deposited data

Results flagged for a closer look

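In 60 sets of values (members and ratios by group) 6 had 1 library far from the rest of its group, where chance flags about 1 in 20. These are values only. miR-222-3p was lowest in acute infancy-onset SE library 1-S24, at 9.860 log2 CPM against 10.358 to 10.720 in the other 7. In latent adult control 2-S14 it was 10.628 log2 CPM, against 11.216 to 11.717 in the other 9. The log2 ratio of miR-221-3p to miR-221-5p was 5.947 in acute infancy control 1-S37, against 4.799 to 5.278 in the other 8. It was 4.805 in latent adult-onset SE library 2-S4, against 3.488 to 3.991 in the other 9. In chronic adult control 3-S7, 1 of the 7 libraries that stand apart, it was 6.809, against 3.683 to 4.464 in the other 9. The log2 ratio of miR-222-3p to miR-221-3p was -1.149 in acute adult-onset SE library 1-S2, against -0.786 to -0.501 in the other 8.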

How the results depend on the processing

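Over 69 results and 1157 alternative values, 1148 stayed within 1 SD between replicates (0.2 for r), 8 moved further and 1, a correlation, reversed. Of the relations between members, r of miR-221-3p with miR-221-5p in the acute stage was 0.0535 in controls only, r of the guides in the latent stage was 0.5118 without the 2 libraries farthest from the median, and r of miR-221-3p with miR-221-5p in the chronic stage, 0.0800 over all libraries, was -0.1399 in controls only and 0.6994 without the libraries that stand apart, whose exclusion was chosen after seeing the data. The other 5 were control levels with 1 TMM over all stages, such as 2482 CPM of miR-221-3p in acute infancy controls. Signs of uncalled differences varied in the chronic stage for miR-221-3p after infancy-onset SE (-0.10 to 0.02) and for miR-222-3p between controls (-0.02 to 0.27). Without TMM the median of all miRNAs moved to 0.12 in the acute and 0.08 in the latent adult-onset comparison, and to 0.20, 0.17 and -0.22 between acute, latent and chronic controls.

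Counts of calls over all miRNAs differed by more than 1.5 times in several comparisons. Acute adult-onset calls were 14, and 30 in a fit of all 4 groups. Acute infancy-onset calls were 19, 11 without TMM and 38 with voom. Latent adult-onset calls were 30, and 54 in a fit of all 4 groups. Latent infancy-onset calls were 2, against 0 to 10. Chronic adult-onset calls were 6, against 26 with voom and 19 without TMM or without 3-S7, and calls between chronic controls were 29, against 9 to 153. Fitting all 4 acute groups also called miR-221-5p and miR-222-3p after adult-onset SE but no longer miR-222-3p after infancy-onset SE. Nothing is read from these calls, because these contrasts helped to choose the members. No paired analysis was possible because library numbers are unique within a stage and no groups compared share a replicate number that marks a litter, batch or animal. Depth limits miR-222-5p, which passed the minimum in no stage, and acute miR-221-5p.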
